A study of Mus musculus with 6 samples.

Results

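Genes of extracellular proteolysis were followed in pancreatic acini, the secretory units of the exocrine pancreas, as they turned into duct-like structures ex vivo (acinar-to-ductal metaplasia, ADM). The genes were chosen by name, 10 of the 56953 genes in the deposited count table: the matrix metalloproteinases Mmp2, Mmp3, Mmp7, Mmp9, Mmp13 and Mmp14, the related protease Adamts1, and the inhibitors Timp1, Timp2 and Timp3. Bulk RNA was sequenced on day 3 from 6 cultures in 3 groups of 2 libraries. WT acini came from wild-type mice and were untreated. DD acini came from Dkk3 knockout mice, which cannot secrete the glycoprotein DKK3, and were untreated. DD + rDKK3 acini came from Dkk3 knockout mice and received recombinant DKK3. All 6 cultures were embedded in Matrigel and shared a Waymouth medium with 10% FBS, 10 µg/ml dexamethasone and 0.1 mg/ml trypsin inhibitor, so every group carries the glucocorticoid and the serum. The knockout allele replaces the exon with the secretion signal, and an intracellular product that starts further downstream in the locus may remain. The labelled ages were 10 and 11 weeks in WT, 12 and 13 weeks in DD, and 14 and 15 weeks in DD + rDKK3, which makes age and group inseparable if these ages hold: the effects of the 2 cannot be told apart.

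Matrix metalloproteinases (MMPs) are zinc-dependent enzymes that cut collagens, laminins, fibronectin and cell surface proteins. Most are secreted as inactive precursors whose prodomain must be removed, and tissue inhibitors of metalloproteinases (TIMPs) block the active enzymes. In the pancreas, MMP7 is known as an epithelial enzyme of metaplastic ducts, whereas MMP2 and MMP14 are typical of fibroblasts and stellate cells, the stromal cells that lay down matrix. MMP14, anchored in the membrane, activates the MMP2 precursor in a complex with TIMP2. All values here are transcript levels and hold no measure of enzyme activity, which depends on these later steps.

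The library totals ranged from 12018473 to 19750401 counts, and each replicate pair differed far beyond counting noise (chi-square per degree of freedom 23.5 to 67.3). The targeted gene Dkk3 had 10 and 1 counts in WT, 11 and 9 in the DD libraries, and 5 in each treated library. A gene-level count does not separate the replaced exon, so it does not check the genotype labels. The library labelled female, WT 2, had 16 counts of Xist, against 0 in the other libraries, and also carried Y-linked transcripts at 141 CPM (counts per 1e6 of the TMM-scaled library total), within the range of 119 to 147 CPM of the others, so its Y-linked transcripts go against its label. Acinar markers summed to 144000 and 107000 CPM in WT, 94300 and 81800 CPM in DD, and 109000 and 86900 CPM in DD + rDKK3, and ductal markers to 1600 to 2530 CPM. DD 2 and DD + rDKK3 2 stood apart from the other libraries, with summed fibroblast and stellate markers of 824 and 927 CPM against 47.9 to 167 CPM. These are mixed cultures, in which fewer cells of a type and less RNA per cell cannot be told apart.

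Promoter sequences of the MMP genes are shown first because FOS, examined by the study as a mediator of DKK3 loss, belongs to the AP-1 family of dimeric transcription factors, and MMP genes are textbook AP-1 targets. The letters TGACTCA and their reverse complement TGAGTCA, searched on both strands in the 250 bases before the canonical start in GRCm39, occurred in 4 of the 10 genes and in 873 of 21705 promoters of protein-coding genes (4.02%). The 100 bases next to the start are printed 5′ to 3′ on the coding strand, with the match in capitals. They lie at chr9:7445722-7445821 for Mmp3, chr9:7691991-7692090 for Mmp7, chr2:164790039-164790138 for Mmp9, chr9:7272414-7272513 for Mmp13 and chr8:93553802-93553901 for Mmp2, all on the plus strand. Mmp2 is printed as a promoter without the match.
Mmp3: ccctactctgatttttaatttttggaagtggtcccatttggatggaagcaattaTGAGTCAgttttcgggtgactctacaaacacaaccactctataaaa
Mmp7: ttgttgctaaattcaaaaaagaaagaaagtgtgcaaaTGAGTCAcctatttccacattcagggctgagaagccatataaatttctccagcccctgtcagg
Mmp9: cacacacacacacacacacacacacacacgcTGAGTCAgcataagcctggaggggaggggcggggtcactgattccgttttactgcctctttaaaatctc
Mmp13: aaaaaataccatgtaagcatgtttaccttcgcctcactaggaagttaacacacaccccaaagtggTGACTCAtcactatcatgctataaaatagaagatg
Mmp2: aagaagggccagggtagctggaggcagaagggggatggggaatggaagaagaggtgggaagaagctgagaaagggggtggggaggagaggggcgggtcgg

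The match ended 40 bases before the start in Mmp3, 57 in Mmp7, 63 in Mmp9 and 29 in Mmp13. The ETS-type letters AGGAAG or CTTCCT, present in 28.9% of promoters, stood in the same 250 bases of Mmp3, Mmp7, Mmp13, Mmp14, Timp1, Timp2 and Timp3. Of these bases, 187 in Timp2 and 35 in Timp1 lay in annotated exons, so they are not all upstream of transcription. The TATA letters TATAAA or TTTATA, present in 11.9% of promoters, stood in those of Mmp3, Mmp7, Mmp13 and Adamts1. The AP-1 and ETS letters are distinct and did not overlap at any of these places. Such matches describe the sequence and do not show binding. The 4 genes with the AP-1 letters differed in level. Mmp7 was the most abundant of all the genes followed, Mmp3 was at 1.89 to 15.6 CPM, and Mmp9 and Mmp13 were near the limit of counting. Over the 6 libraries, Mmp3 and Mmp9 varied together (Pearson's r of log2 CPM 0.92), and Mmp7 varied with neither (0.05 and 0.19). The value for Mmp3 and Mmp9 rests on DD 2 and DD + rDKK3 2, where both were highest. Mmp9 had 14 and 11 counts there, and passed the filter on low counts only through these libraries. Mmp13 had too few counts to compare. A part of AP-1 in these levels was not tested.

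The genes lay on 8 chromosomes, all protein coding. Mmp3 (chr9:7445822-7455975), Mmp7 (chr9:7692091-7699586) and Mmp13 (chr9:7272514-7283331) sit in the MMP cluster of chromosome 9. Mmp2 spans chr8:93553919-93580048, Mmp9 chr2:164782700-164797770, and Mmp14 chr14:54669069-54682821, all on the plus strand. The deposited spans of Mmp9 and Timp2 begin before the canonical starts used for their promoters. Adamts1 (chr16:85590715-85600001) and Timp2 (chr11:118191887-118246566) are on the minus strand, and Timp1 (chrX:20736405-20740974) and Timp3 (chr10:86136236-86185370) on the plus strand. Timp1 and Timp3 each lie within a synapsin gene, Syn1 or Syn3, on the opposite strand, which the strand-specific protocol separates. Timp2 shares its strand with the overlapping gene Cep295nl, and Mmp14 with an overlapping gene without a symbol, and reads over shared exons could have been left out by the counting in both.

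Levels between genes were compared per kilobase of exon. Mmp7 was highest, with a mean over the 6 libraries of 159 CPM per kilobase, above 99.1% of protein-coding genes. Timp1 followed at 60.7 CPM per kilobase, above 98% of these genes. Timp2 (9.65), Timp3 (6.45), Mmp2 (3.89), Mmp14 (3.53), Mmp3 (3.2) and Adamts1 (2.8 CPM per kilobase) formed a middle range. Mmp9 and Mmp13 were lowest, at 0.0949 and 0.0639 CPM per kilobase. Neighbours in this order overlapped in their values over the libraries, except Timp2 with Timp3 and Adamts1 with Mmp9. The spread over libraries had another order: the highest library exceeded the lowest 28.6 times for Mmp2 and 14.8 times for Timp1, but only 1.43 times for Adamts1 and 1.3 times for Timp3.

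**Figure D1:**
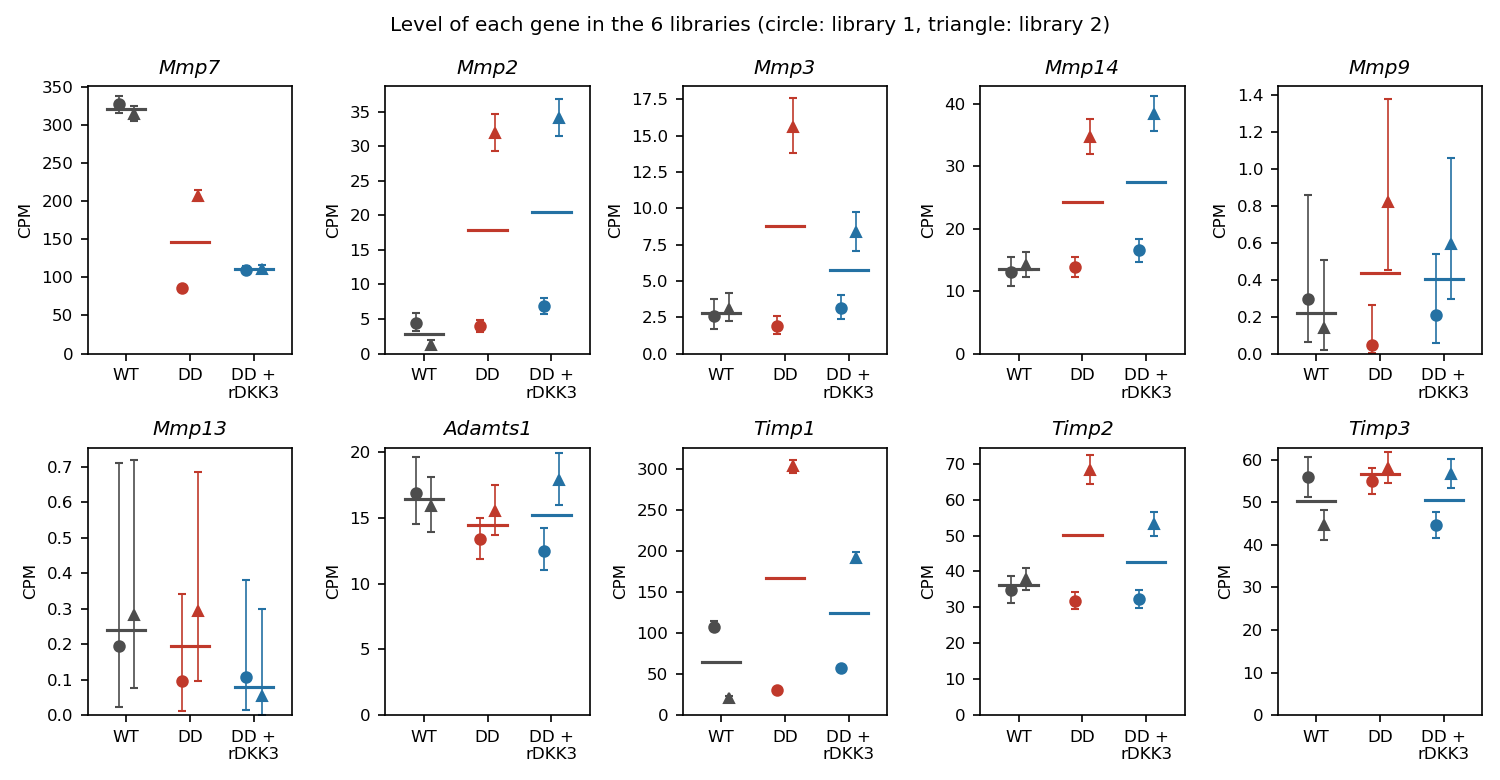
Level of each gene in CPM (y axis, starting at 0) in the 6 libraries by group (x axis). Circles are library 1, triangles library 2, bars exact 95% Poisson intervals of the count and horizontal lines group means. Both WT libraries of Mmp7 lie at 314 CPM or above and all others at 207 CPM or below, whereas the triangles of DD and DD + rDKK3 stand far above the circles for Mmp2, Mmp3, Mmp14 and Timp1.

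Mmp7, matrilysin, a small secreted epithelial MMP, had the smallest p of all members in both comparisons with WT, in which it was lower. Its levels were 327 and 314 CPM in WT (3327 and 4473 counts), 86.3 and 207 CPM in DD, and 110 and 111 CPM in DD + rDKK3. Both WT libraries lay above all 4 knockout libraries. Among all genes, groups did not overlap for 37.8% in DD against WT and 55% in DD + rDKK3 against WT, in either direction. The DD libraries of Mmp7 differed 2.4 times from each other, and the treated libraries fell between them. Mean levels were 320.5 ± 8.95 CPM for WT, 146.7 ± 85.4 CPM for DD and 110.6 ± 1.08 CPM for DD + rDKK3 (SD, n = 2). DD against WT gave a log2 fold change of -1.13 (SE 0.355, 95% interval -1.96 to -0.30), with an unadjusted p of 0.0139 and a Benjamini-Hochberg adjusted p of 0.586 by edgeR's quasi-likelihood test. DD + rDKK3 against WT gave -1.53 (SE 0.359, interval -2.37 to -0.70, p 0.00302, adjusted p 0.321), the 54th smallest p of 14738 genes. The addition of rDKK3 to DD gave -0.41 (interval -1.23 to 0.41, adjusted p 1), so the treated level was not shown to differ from DD, and it did not lie nearer to WT. The summed acinar markers were also highest in WT 1, but DD + rDKK3 1 was above WT 2, unlike for Mmp7. Of 12 acinar markers 9 were below 0 in DD against WT, with a median of -0.51 and none called, and their part in the difference of Mmp7 was not tested.

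Whether Mmp7 was called depended on the fit. For DD + rDKK3 against WT, the gene was called by DESeq2 (log2 fold change -1.53, adjusted p 0.00333, among the 5951 genes for which DESeq2 gave an adjusted p) and by edgeR on these 4 libraries alone (adjusted p 0.0298). It was also called when DD 1 or DD 2, which are not part of that comparison, was left out of the edgeR fit. It was not called when a library of the compared groups was left out. Limma-voom did not call it (adjusted p 0.345). Neither did edgeR scaled by library size alone (adjusted p 0.364) or with the replicate number as a block over 6 libraries (adjusted p 0.38). Its log2 fold change stayed between -1.56 and -1.49 with any library left out. For DD against WT it ranged from -0.61 without DD 1 to -1.89 without DD 2, where the adjusted p was 0.0588.

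Mmp2, gelatinase A, which degrades type IV collagen of basement membranes, was at 4.42 and 1.19 CPM in WT (45 and 17 counts), 3.98 and 31.9 CPM in DD (84 and 543 counts), and 6.81 and 34.1 CPM in DD + rDKK3 (129 and 634 counts). DD 1 lay between the WT libraries, and the high values belonged to DD 2 and DD + rDKK3 2. Its log2 fold change was 2.73 for DD over WT (SE 1.15, interval 0.06 to 5.39, p 0.0462, adjusted p 0.586), 0.20 for rDKK3 added to DD (SE 0.982) and 2.92 for the treated group over WT (SE 1.15, p 0.0357, adjusted p 0.321). Without DD 2, the first of these was 0.57, and without DD + rDKK3 2 the last was 1.33. Mmp2 thus differed 8.03 times between the DD libraries, while DD 1 was within the range of WT.

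Mmp14, the membrane-anchored activator of MMP2, followed the same libraries over a smaller range. It was at 13 and 14.2 CPM in WT, 13.8 and 34.7 CPM in DD, and 16.5 and 38.4 CPM in DD + rDKK3. Its treated libraries both lay above WT, whereas DD 1 lay within WT. It gave log2 fold changes of 0.83 for DD over WT (SE 0.493, adjusted p 0.595) and 1.01 for the treated group over WT (SE 0.493, adjusted p 0.347), which moved to 0.02 without DD 2 and to 0.28 without DD + rDKK3 2. With rDKK3 added to DD it was 0.18 (interval -0.93 to 1.29).

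Mmp3, stromelysin 1, which cuts many matrix proteins and activates other MMP precursors, was at 2.55 and 3.09 CPM in WT (26 and 44 counts), 1.89 and 15.6 CPM in DD (40 and 266 counts), and 3.12 and 8.34 CPM in DD + rDKK3 (59 and 155 counts). DD 1 was the lowest and DD 2 the highest of the 6 libraries. DD over WT gave a log2 fold change of 1.62 (SE 0.884, adjusted p 0.59), which turned to -0.58 without DD 2. For rDKK3 added to DD it was -0.60 (SE 0.827), and by replicate number the treated library was 1.65 times DD 1 but 0.533 times DD 2, so the sign depended on which library was taken. Against WT the treated group was at 1.01 (SE 0.885, adjusted p 0.557).

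Mmp9, gelatinase B, typical of neutrophils and macrophages, had only 3 and 2 counts in WT, 1 and 14 in the DD libraries, and 4 and 11 in the treated ones. It passed the low-count filter only through DD 2 and DD + rDKK3 2, the libraries with 10 or more counts. In CPM the highest value was 0.823 (exact 95% Poisson interval 0.45 to 1.38) and the lowest 0.0473 (0.0012 to 0.264). DD over WT gave a log2 fold change of 0.97 with an interval from -1.95 to 3.90, so changes of severalfold in either direction were not detectable at this depth. Mmp13, collagenase 3, had 2 and 4 counts in WT, 2 and 5 in the DD libraries, and 2 and 1 in the treated ones. It did not pass the filter, its libraries were at 0.0538 to 0.294 CPM with overlapping counting intervals, and no fold change is given.

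Adamts1, a secreted protease that cuts the proteoglycans versican and aggrecan, was nearly level. It was at 16.9 and 15.9 CPM in WT, 13.4 and 15.5 CPM in DD, and 12.5 and 17.9 CPM in DD + rDKK3. Both DD libraries lay just below WT, and the treated libraries spanned all others. Log2 fold changes were -0.18 for DD over WT (interval -0.68 to 0.32), 0.07 for rDKK3 added to DD (-0.43 to 0.57) and -0.11 for the treated group over WT (-0.61 to 0.39). Scaled by library size alone, the first and last turned to 0.03 and 0.06, with the median of all genes shifted to 0.219 and 0.18.

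Among the inhibitors, Timp1 varied most. TIMP1, a soluble inhibitor of most secreted MMPs that also binds the MMP9 precursor, had its transcript at 108 and 20.5 CPM in WT (1100 and 292 counts), 31.1 and 304 CPM in DD (657 and 5171 counts), and 56.9 and 192 CPM in DD + rDKK3 (1078 and 3574 counts). WT 2 was at 0.19 times WT 1, and DD 2 exceeded DD 1 9.78 times. The difference of DD from WT was 1.39 on the log2 scale (SE 1.09, interval -1.14 to 3.92, adjusted p 0.643) and ranged from -1.03 without DD 2 to 3.05 without WT 1. It was -0.43 for rDKK3 added to DD (interval -2.90 to 2.05) and 0.96 for the treated group over WT (-1.55 to 3.47). By number, the treated library was 1.83 times DD 1 and 0.632 times DD 2.

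Timp2, whose protein both inhibits MMPs and takes part in MMP2 activation, was at 34.9 and 37.8 CPM in WT, 31.9 and 68.4 CPM in DD, and 32.3 and 53.1 CPM in DD + rDKK3. The number 1 libraries of both knockout groups lay below WT and the number 2 libraries above it. Its log2 fold change of 0.46 for DD over WT (SE 0.363, adjusted p 0.643) was -0.19 without DD 2. Timp3, a matrix-bound inhibitor that also blocks ADAM17 and ADAMTS proteases, was at 55.9 and 44.6 CPM in WT, 55 and 58.2 CPM in DD, and 44.7 and 56.6 CPM in DD + rDKK3. Its groups overlapped and its intervals were narrow, from -0.25 to 0.59 in DD against WT, -0.58 to 0.26 for rDKK3 added to DD and -0.41 to 0.43 in DD + rDKK3 against WT on the log2 scale.

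**Figure D2:**
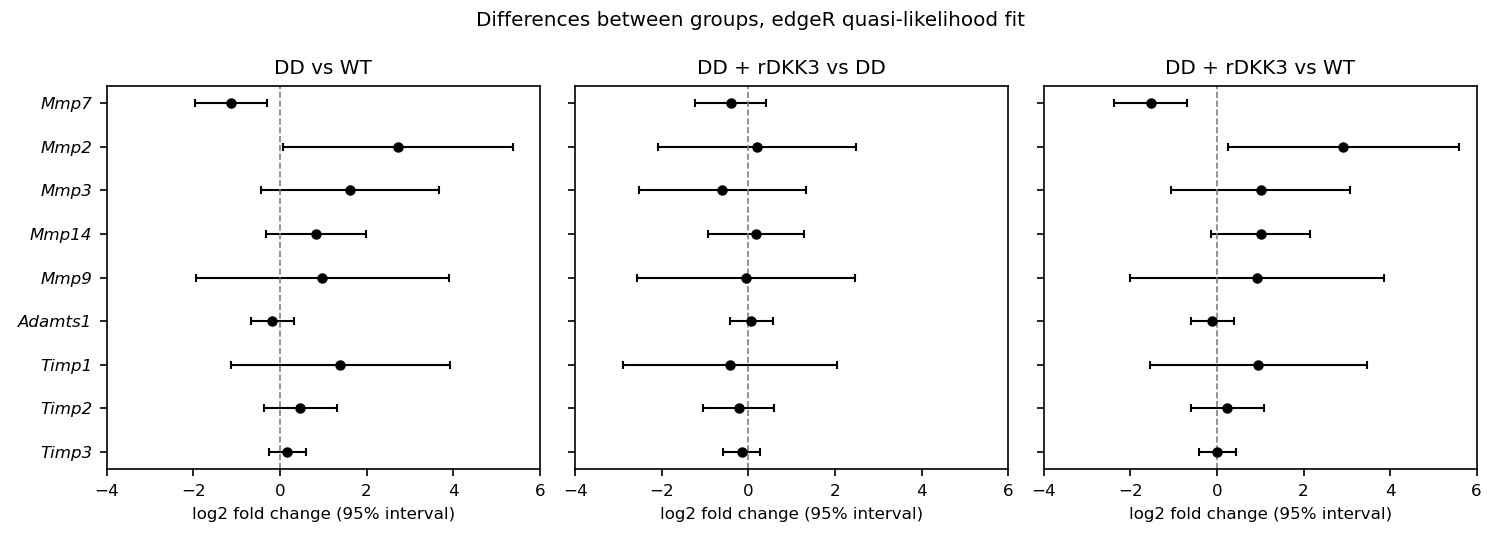
Log2 fold change (x axis) of the 9 genes tested, in the 3 comparisons, with 95% intervals from the edgeR quasi-likelihood fit and a dashed line at 0. The intervals of Mmp7 and Mmp2 leave out 0 in both comparisons with WT, before adjustment over all genes, and those of Timp3 and Adamts1 are the narrowest.

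DD was set against WT to ask what the absence of secreted DKK3 does. None of the 9 genes tested was called at an adjusted p under 0.05 by edgeR, where 6 of 14738 genes were (0.0407%). At an unadjusted p under 0.05 there were 2, against 8.26% of all genes: Mmp2 was higher (4.27% of all genes) and Mmp7 lower (3.99%). The groups did not overlap for 2 genes, Mmp7 and Adamts1, both lower in DD, against 37.8% of all genes in either direction and 19.7% lower. The log2 fold change was above 0 for 7 of the 9, with a median of 0.83, beside 51.7% of all genes and a median of 0.0164. DESeq2 called none of the 8 members to which it gave an adjusted p (0.513% of all genes). Without the low-count filter edgeR called 5 of the 10 genes (1.99% of all genes), in a fit without gene-specific spread.

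DD + rDKK3 was set against DD to ask what the secreted protein does when it is given back. No gene of the 9 was called, as of all genes (0%), none reached an unadjusted p under 0.05 (1.98% of all genes), and none had groups that did not overlap (29.5% of all genes). DESeq2 called 11 genes (0.185%), none of them among the 5 members to which it gave an adjusted p, and edgeR without the filter called 0 of 10 members (0.275% of all genes). The log2 fold changes ran from -0.60 for Mmp3 to 0.20 for Mmp2, with a median of -0.16 beside -0.00282 for all genes, and 3 of 9 were above 0 (49.5% of all genes). The names of the libraries numbered alike in these groups match (DD1 or DD2 in both), though the labels do not say that they came from 1 animal. With the replicate number as a block, in a fit of these 4 libraries alone, edgeR called 194 genes in place of 0 and still no member, with adjusted p from 0.714 for Mmp2 to 0.999 for Mmp9. The intervals of Mmp2, Mmp3, Mmp9 and Timp1 without the block still allowed changes of over 1 log2 unit either way.

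DD + rDKK3 and WT differ in genotype and treatment together, and this comparison shares its libraries with the other two. None of the 9 genes was called by edgeR (7 of all genes, 0.0475%). At an unadjusted p under 0.05 there were again 2 (15.3% of all genes), Mmp2 higher (7.34%) and Mmp7 lower (8%). The groups did not overlap for 4 genes (55% of all genes): Mmp2, Mmp3 and Mmp14 were higher in both treated libraries (27.9% of all genes) and Mmp7 was lower (27.1%). Over both directions, 4 of 9 is below the share among all genes. The log2 fold change was above 0 for 7 of 9 (51.6% of all genes), with a median of 0.92 beside 0.0171. DESeq2 called 1 of the 5 members to which it gave an adjusted p, Mmp7 (0.975% of all genes), and edgeR without the filter 5 of 10 (2.97%).

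Single libraries decided most of these directions. In DD against WT, leaving out DD 2 turned the sign of Mmp3, Mmp9, Timp1 and Timp2, and the median of the genes tested moved to -0.29, from 0.83. For rDKK3 added to DD, each gene except Timp3 had fits of both signs when 1 library was left out, and Mmp7 turned to 0.36 without DD 2. A lone sample left in a group was assumed to vary like the other groups. Against WT, the treated group kept its direction in each such fit for Mmp2 (1.33 to 4.10), Mmp3 (0.14 to 1.55), Mmp7 and Mmp14 (0.28 to 1.5), and not for Adamts1 or the 3 inhibitors. Mmp9 stayed at 0.02 to 1.48, but it passed the low-count filter only through DD 2 and DD + rDKK3 2. Its direction thus follows in part from the filter. Without WT 2, the library with Y-linked transcripts against its label, no member was called, Mmp2 was at 2.01, Timp1 at 0.63 and Mmp7 at -1.15 in DD against WT, and Timp3 turned to -0.14 in the treated group against WT.

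**Figure D3:**
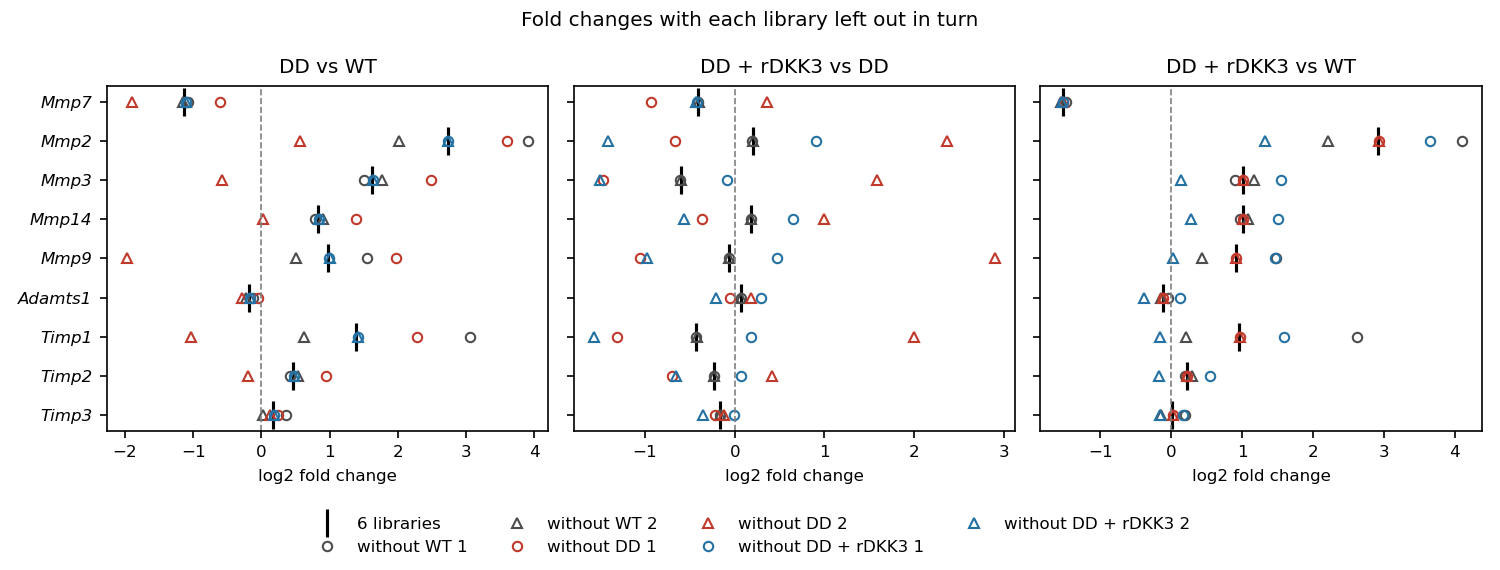
Log2 fold change (x axis) of each gene in the 3 comparisons with all 6 libraries (black bars) and with each library left out in turn (open symbols, coloured by the group of the library). Mmp7 against WT stays below 0 in both comparisons, and removing DD 2 moves Mmp3, Mmp9 and Timp1 across 0 in DD against WT.

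DD 2 and DD + rDKK3 2 were the 2 highest of the 6 libraries for 7 of the 9 genes tested, against 10.5% of all genes, a pattern chosen after the values were seen and given as a description. Mmp9 is among the 7 and passed the filter only through these libraries. The exceptions were Mmp7 and Adamts1. Fibroblast and stellate markers, summed, were at 121 and 47.9 CPM in WT, 71 and 824 CPM in DD, and 167 and 927 CPM in DD + rDKK3, with all 12 markers detected in the table and tested. Of these markers, Des did not follow the sum, at 0.423 to 2.32 CPM and highest in WT 2. Across the 6 libraries, Pearson's r of log2 CPM with the log2 of this sum was 0.98 for Mmp2, 0.95 for Mmp14, 0.93 for Timp1, 0.91 for Mmp9, 0.89 for Mmp3 and 0.84 for Timp2, but 0.58 for Timp3, 0.39 for Adamts1 and -0.22 for Mmp7. These values describe 6 libraries in which depth and scaling are shared, and they rest on the libraries numbered 2 of the knockout groups.

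Summed macrophage markers were highest in the same libraries, at 135 and 58.8 CPM in WT, 71.2 and 262 CPM in DD, and 87.4 and 202 CPM in DD + rDKK3. WT 1, the third highest of these sums, was also the third highest for Timp1. Lyz2 was the largest part in DD 2 (133 CPM). Not all markers followed: Cd68 was at 29.5 to 42.2 CPM, Fcgr1 was highest in WT 1, and C1qa and C1qc were higher in WT 1 than in DD + rDKK3 2. Mesothelial markers were at 34.9 CPM in DD 2 and 8.43 to 14.9 CPM elsewhere. Nearly all of this sum was Msln (32.6 CPM in DD 2), and the rest of the list was near the floor. Smooth muscle and pericyte markers were at 14.5 to 29.2 CPM. Endothelial markers (81.9 to 141 CPM) and islet markers (152 to 283 CPM) varied less. Neutrophil markers summed to at most 2.32 CPM, with Elane at 0 in every library, and lymphocyte markers to at most 0.295 CPM, with Cd2 and Ms4a1 at 0. The part of these cell types in the differences of Mmp2, Mmp3, Mmp9, Mmp14, Timp1 and Timp2 was not tested. Without DD 2 and DD + rDKK3 2, a choice made after seeing the data, Mmp7 was at -1.89 in DD against WT and -1.54 in DD + rDKK3 against WT. These values follow from the libraries kept: DD 1 was the lower DD library (86.3 CPM), and the treated libraries were alike (110 and 111 CPM). The part of these cell types in the difference of Mmp7 was thus not tested either.

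**Figure D4:**
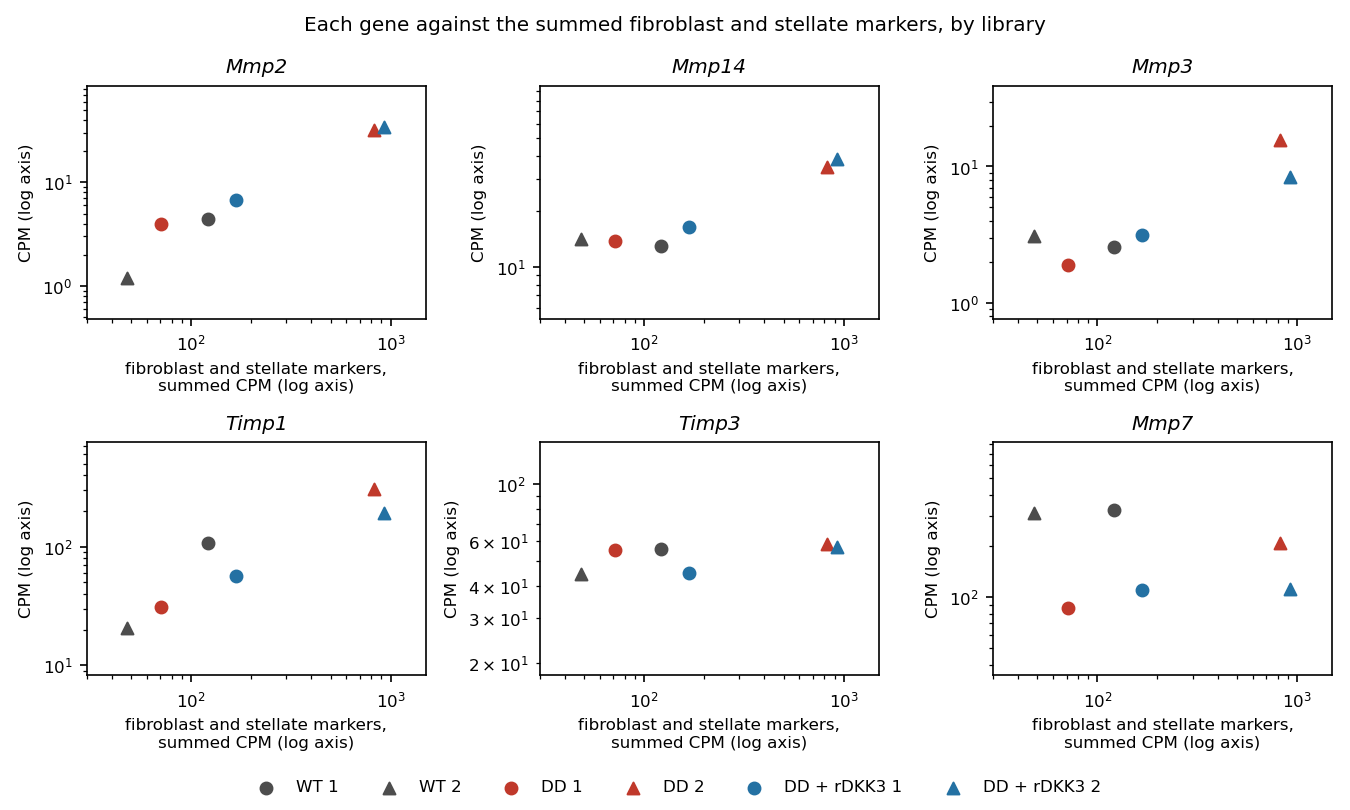
CPM of 6 genes (y axes, log scale) against the summed CPM of 12 fibroblast and stellate markers (x axes, log scale), 1 point per library. Mmp2, Mmp14, Mmp3 and Timp1 are highest in DD 2 and DD + rDKK3 2, the libraries with 824 and 927 CPM of markers, Timp3 is about level, and Mmp7 is highest in the WT libraries.

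The balance of proteases and inhibitors was described by sums per kilobase of exon. The 6 Mmp genes summed to 274 and 263 CPM per kilobase in WT, 75.5 and 194 in the DD libraries, and 96.9 and 112 with rDKK3. Mmp7 alone made up 81.6% to 98.3% of this sum, so it follows Mmp7. The 3 Timp genes summed to 69.9 and 24.4 CPM per kilobase in WT, 29.8 and 178 in the DD libraries, and 41.8 and 117 with rDKK3, of which Timp1 made up 42.9% to 87.4%. The ratio of the Mmp to the Timp sum was 3.92 and 10.8 in WT, 2.53 and 1.09 in the DD libraries, and 2.32 and 0.96 with rDKK3. Both WT libraries were above all knockout libraries, and no test was run on a ratio of chosen genes. Without Mmp7 and Timp1 the ratio was 0.336 and 0.323 in WT, 0.321 and 1.05 in the DD libraries, and 0.505 and 1.1 with rDKK3, an order that separates DD 2 and DD + rDKK3 2 from the rest and not the genotypes.

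**Figure D5:**
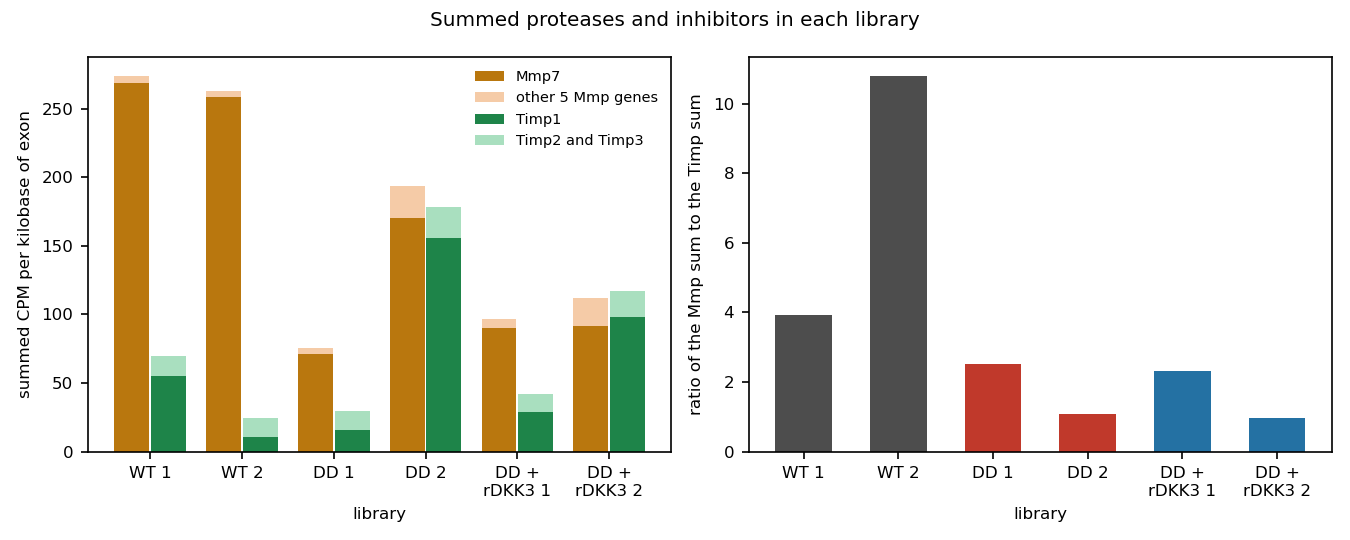
Left, CPM per kilobase of exon summed over the 6 Mmp genes (brown) and the 3 Timp genes (green) in each library, with Mmp7 and Timp1 in the darker shade. Right, the ratio of the sums, with bars from 0, which is 3.92 and 10.8 in WT and 2.53 or below in the knockout libraries.

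The other genes of the pathway were described by lists chosen with earlier results of these data known, and none of their genes was called in any comparison. Of 17 other MMPs 8 were tested, with a median log2 fold change of 0.21 in DD against WT and -0.16 for rDKK3 added to DD. The most abundant was Mmp15, a membrane-anchored MMP of epithelia, at 157 to 222 CPM in the 6 libraries (log2 fold change 0.13 in DD, SE 0.202). Mmp8, the neutrophil collagenase, was highest in WT 1 at 34.1 CPM and lay between 3.93 and 20.5 CPM elsewhere. Mmp23 (1.75 for DD over WT, SE 0.866, adjusted p 0.586) was highest in DD 2 at 5.41 CPM.

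Of the 18 other ADAMTS proteases 7 were tested, with medians of 0.74 in DD against WT, 0.16 for rDKK3 added and 0.86 in DD + rDKK3 against WT. Adamts9, a proteoglycan-cutting relative of Adamts1, was at 44.4 and 60.8 CPM in WT, 105 and 71.2 CPM in DD, and 79.2 and 87 CPM in DD + rDKK3. Every knockout library was thus above both WT libraries (log2 fold change 0.74 in DD, SE 0.233, p 0.0139, adjusted p 0.586). The share of all genes with such an order was not counted. Groups did not overlap for 37.8% of all genes in DD against WT and for 55% in DD + rDKK3 against WT. Adamts9 was not highest in the libraries rich in stromal markers. All 7 ADAM membrane proteases were tested and all were above 0 in DD against WT, beside 51.7% of all genes. Their median was 0.35, from 0.03 for Adam10 to 2.35 for Adam19, which was at 1.51 CPM in DD 1 and 9.7 CPM in DD 2. Adam12, a protease of mesenchymal cells, was at 3.45 and 16.5 CPM in DD against 2.65 and 1.69 CPM in WT (p 0.0374, adjusted p 0.586). Adam9 was at 148 CPM in both DD libraries against 113 and 116 CPM in WT (0.37, p 0.0429, adjusted p 0.586).

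Activators and binding partners held the list members with the smallest p. Plaur, the receptor that gathers the plasminogen activator urokinase at the cell surface, was at 22.6 and 25.8 CPM in WT, 42.8 and 47.6 CPM in DD, and 25.3 and 26.9 CPM in DD + rDKK3. The groups DD and WT did not overlap (37.8% of all genes), nor did DD and DD + rDKK3 (29.5%), and the treated values were close to WT. DD over WT gave 0.90 on the log2 scale (SE 0.151, p 0.000407, adjusted p 0.3) and -0.79 for rDKK3 added to DD (SE 0.149, p 0.000832, adjusted p 1). Both comparisons share the DD libraries, so these values are not independent of each other. Pcsk6, a proprotein convertase, was at 14.4 and 18.3 CPM in WT, 33.8 and 25.5 CPM in DD, and 20.9 and 21 CPM in DD + rDKK3 (0.85 in DD, p 0.00303, adjusted p 0.525). Plat, tissue plasminogen activator, was at 229 and 241 CPM in DD and at 145 and 86.4 CPM in DD + rDKK3 (-1.02, SE 0.253, p 0.00419, adjusted p 1), with 197 and 165 CPM in WT. Lcn2, a partner of MMP9, was at 5610 and 4830 CPM in WT, 3400 and 3720 CPM in DD, and 4970 and 5520 CPM in DD + rDKK3 (-0.55 in DD, adjusted p 0.586, and 0.56 for rDKK3 added, adjusted p 1). Furin, the convertase that activates MMP14, was at 113 and 119 CPM in WT and 151 to 174 CPM in the 4 knockout libraries (0.49 in DD, p 0.0169, adjusted p 0.586). A gap from WT was found for 37.8% of all genes in DD and for 55% in DD + rDKK3. DD 2 and DD + rDKK3 2 were the 2 highest libraries for Furin and not for Plaur, Pcsk6, Plat or Lcn2.

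The 10 matrix substrates were all tested, with a median log2 fold change of 1.54 for DD over WT, 0.08 for rDKK3 added and 1.41 in DD + rDKK3 against WT. Several are also fibroblast markers, so their sums are not independent of the marker list. Vcan, the versican cut by ADAMTS1, was at 7.76 and 2.6 CPM in WT, 6.34 and 50.2 CPM in DD, and 11.7 and 47.9 CPM in DD + rDKK3 (2.48 in DD, p 0.0476, adjusted p 0.586).

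Of the 10 AP-1 and ETS regulators 9 were tested, with a median of 0.19 in DD against WT. Fos was at 8.06 and 37.7 CPM in WT, 78.8 and 118 CPM in DD, and 55.4 and 98 CPM in DD + rDKK3. Every knockout library exceeded WT (2.09 in DD, SE 0.613, edgeR p 0.00998, adjusted p 0.586). Groups did not overlap for 37.8% of all genes in DD against WT and for 55% in DD + rDKK3 against WT. Fosl1 was at 5.99 and 3.79 CPM in WT, 8.66 and 9.47 CPM in DD, and 4.33 and 5.65 CPM in DD + rDKK3. It gave 0.90 in DD (edgeR p 0.014, adjusted p 0.586) and -0.86 for rDKK3 added (edgeR p 0.0155, not called after adjustment). These values share the DD libraries and are not independent. Atf3 was at 30.2 and 19.9 CPM in WT, 12.7 and 15.5 CPM in DD, and 21.6 and 19 CPM in DD + rDKK3 (-0.83 in DD, p 0.00816, adjusted p 0.586). Of the genes with the AP-1 letters, Mmp7 was lower in the knockout libraries, where Fos was higher. Mmp3 was high in DD 2 and DD + rDKK3 2, which had the highest Fos and also the highest fibroblast and stellate marker sums. Whether AP-1 had a part in the level of either gene was not tested.

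The genes whose log2 CPM was most like that of each member over the 6 libraries were listed as a description, among 11865 genes (11866 for Mmp9) with an average log2 CPM of at least 1. Mmp2 was most like Vcan, Mrc2 and Fbln2 (Pearson's r 0.9984 to 0.9971), matrix genes and a collagen receptor. Mmp14 was most like Socs3, Postn and Fscn1 (0.9968 to 0.9958), Timp1 most like Tmem45a (0.996) and Dcn (0.9922), and Mmp3 most like Tfpi2, a serine protease inhibitor (0.992). Mmp7 was most like Rpl3, a protein of the large ribosomal subunit (0.998), Fndc4 and Nle1, none of which is on a marker list. With 6 points and so many genes, values near 1 arise easily.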

How the data were processed

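The deposited table holds raw counts per gene, which the authors made by aligning strand-specific paired-end reads to GRCm39 with STAR 2.7.9a (GENCODE M32, basic), counting exon alignments in union mode and summing them per gene. Reads over overlapping genes of 1 strand can be lost in this way. After 92 empty spike-in rows were dropped, filterByExpr (minimum count 10, minimum total 15) kept 14738 of 56953 genes. All 6 libraries were fitted with TMM scaling and the two-sided quasi-likelihood F-test of edgeR 4.0.16 (R 4.3.3), adjusted by Benjamini-Hochberg over all genes tested and called under 0.05, with 3 residual and 4.634 prior degrees of freedom. CPM used TMM-scaled totals, and log2 CPM a prior count of 2. Lengths and promoters came from GENCODE M39 on GRCm39. The floor of 3 counts was 0.142 to 0.295 CPM, and Poisson intervals cover counting error only. The labels do not tie libraries to separate animals, so p-values measure the spread between these libraries. Procedures were tested on simulated data. There edgeR called 18.18% of changes of 1 log2 unit and 78.79% of changes of 2 log2 units in DD against WT, with 7 false calls. A gene that was not called may thus still differ. Alternatives were DESeq2 1.42.0, limma-voom (3.58.1), other scalings, no filter, only the groups compared, a replicate block and left-out libraries. The members and lists were chosen with earlier results of these data known. Named were the members, from each list up to 3 genes with the smallest p per contrast, and the 3 genes most like each member. Mmp8 was named after its values were seen. Values of 1 gene on a list were left out.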

Additional observations from a re-analysis of the deposited data

How the results depend on the processing

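With 2 libraries per group, the spread rests on few degrees of freedom, and wide intervals limit Mmp2, Mmp3, Mmp9 and Timp1 in all comparisons. The members called, 0 in each comparison, became 5 without the low-count filter in DD against WT and in DD + rDKK3 against WT (Mmp2, Mmp3, Mmp7, Mmp14 and Timp1 in both), in a fit of 26506 genes that used no gene-specific spread, the prior degrees of freedom being infinite. In DD + rDKK3 against WT, 1 (Mmp7) was called by DESeq2 and 1 with only the groups compared, and 0 to 1 with a library left out; the cause was not tested. All genes called were 78 by DESeq2, 528 without the filter, 14 without DD 2 and DD + rDKK3 2 and 2 to 6 with 1 library left out in DD against WT, beside 6 in the reported fit and 5 to 8 in the other fits without a block. For rDKK3 added to DD they were 11 by DESeq2, 73 without the filter and 0 otherwise, except with the block below. In DD + rDKK3 against WT, with 7 in the reported fit, they were 58 by DESeq2, 3 by limma-voom, 788 without the filter, 2 to 9 with 1 library left out and 6 to 10 in the other fits without a block.

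Signs turned as follows. In DD against WT, Mmp9 was -0.08 by limma-voom, Adamts1 0.03 by library size alone, and without DD 2 and DD + rDKK3 2, Mmp3 was -0.58, Timp1 -1.04 and Timp2 -0.19. With rDKK3 added to DD, Mmp9 was 0.77 and Timp1 0.09 by limma-voom, and without both libraries Mmp3 was 0.72, Mmp7 0.36, Adamts1 -0.09, Timp1 0.88 and Timp2 0.02. In DD + rDKK3 against WT, Adamts1 was 0.06 by library size alone, and without both libraries Timp1 was -0.16, Timp2 -0.17 and Timp3 -0.16. Leaving out 1 library in turn gave, in DD against WT, Mmp3 -0.58 to 2.48, Mmp9 -1.97 to 1.97, Timp1 -1.03 to 3.05 and Timp2 -0.19 to 0.94. For rDKK3 added to DD, it gave Mmp2 -1.41 to 2.36, Mmp3 -1.50 to 1.59, Mmp7 -0.93 to 0.36, Mmp9 -1.05 to 2.90, Mmp14 -0.57 to 0.99, Adamts1 -0.21 to 0.29, Timp1 -1.57 to 2.00 and Timp2 -0.70 to 0.42. In DD + rDKK3 against WT, it gave Adamts1 -0.38 to 0.12, Timp1 -0.16 to 2.62, Timp2 -0.17 to 0.55 and Timp3 -0.16 to 0.20. Of the values of single genes and medians under all alternatives, 429 kept direction and side of the threshold, or stayed within the replicate spread, 41 turned sign, 14 passed the threshold and 7 moved beyond the replicate spread.

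The labels name no shared animal for replicate numbers, although the titles of DD and DD + rDKK3 libraries numbered alike carry the same DD1 or DD2. The deviations of same-numbered libraries from their group means correlated with r = -0.387 for WT and DD, 0.65 for DD and DD + rDKK3, and -0.247 for WT and DD + rDKK3. With 2 libraries per group, exchanging the numbers in 1 group turns the sign of r, so the sign alone does not show pairing. Labelled ages of DD and DD + rDKK3 libraries numbered alike differ, at 12 and 14 weeks for number 1 and 13 and 15 weeks for number 2. With only 2 numbers and no animal named, the reported fits have no block, and whether these 2 groups were paired was not settled. With the replicate block, 0 members were called in each comparison, and 7, 0 and 5 genes in all with 6 libraries. With the block and only the groups compared, 4 genes were called in DD against WT, 194 for rDKK3 added to DD and 3 in DD + rDKK3 against WT. Under the block, Mmp9 was 0.09 and, with only the groups compared, Timp1 0.07 for rDKK3 added to DD.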
